A study of Rattus norvegicus with 36 samples.

Results

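The aldo-keto reductases described here were the 6 genes Akr7a3, Akr7a2, Akr1a1, Akr1b1, Akr1b8 and Akr1c14, taken as every probe set whose array annotation named 1 of them. They were measured by 9 of the 31042 probe sets tested, which covered 14217 named genes. Akr7a3, Akr7a2, Akr1a1 and Akr1b8 had 1 probe set each, Akr1b1 had 2 and Akr1c14 had 3. The samples were 36 livers of male Harlan Sprague Dawley rats that were 7 weeks old when dosing began, 1 array per sample and 6 samples per group. By gavage on each of 5 days, rats were given corn oil alone as vehicle, or the flame retardant hexachlorocyclopentadienyl-dibromocyclooctane (HCDBCO) in corn oil. The low doses were 0.05 and 0.54 mg/kg, the middle dose 5.41 mg/kg and the high doses 54.1 and 541 mg/kg. All 6 groups received corn oil in a volume of 5 ml/kg, and RNA came from the left liver lobe, taken 1 day after the last dose. The design asks which transcripts differ between each dose and vehicle.

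Aldo-keto reductases are soluble enzymes that use NADPH to reduce aldehydes and ketones to alcohols. In liver they handle reactive aldehydes from lipid peroxidation and foreign chemicals, sugars and steroid hormones. The AKR7 enzymes reduce dialdehydes and succinic semialdehyde, the AKR1A and AKR1B enzymes reduce sugar and lipid aldehydes, and the AKR1C enzymes act mainly on steroids. Rat Akr7a3 is known as the aflatoxin aldehyde reductase that antioxidants induce in rat liver.

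Levels are log2 values made by the authors with RMA, so a difference of 1 is a doubling. Levels were not compared between genes as amounts of RNA, since each probe set binds with its own efficiency. A mean set against other probe sets or a fixed level describes signal only. Arrays had medians between 5.06 and 5.16. The hepatocyte markers marked the tissue as liver: Alb, the plasma albumin gene, averaged 14.7 over the 36 samples, the highest mean of all probe sets. The sample 0.54 mg/kg replicate 4 stood apart, with a mean of 7.71 over 4 measured bile duct markers against 5.66 to 6.31 in the other 35 samples, and results that rest on it are given with and without it. The array of 54.1 mg/kg replicate 5 had a narrower spread of values, with quartiles of 3.79 and 6.94. Without it the differences at 54.1 mg/kg were 0.40 for Akr7a3 and 0.11 for Akr1a1, and 0 member probe sets passed there with or without it.

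Akr7a3 and Akr7a2 belong to the same subfamily and lie on the same strand of chromosome 5. The 4 annotated entries between them include the pseudogenes Rpl9-ps6 and Rps21-ps9. Akr7a3 passed the test at the top dose while Akr7a2 did not. Their promoters are therefore shown, as the 250 bases upstream of each annotated start in RefSeq (build GRCr8, plus strand). The Akr7a3 stretch is chr5:156876471-156876720 and the Akr7a2 stretch is chr5:156835339-156835588. Capitals mark GCGTG, the core of the xenobiotic response element that the aryl hydrocarbon receptor binds.
Akr7a3: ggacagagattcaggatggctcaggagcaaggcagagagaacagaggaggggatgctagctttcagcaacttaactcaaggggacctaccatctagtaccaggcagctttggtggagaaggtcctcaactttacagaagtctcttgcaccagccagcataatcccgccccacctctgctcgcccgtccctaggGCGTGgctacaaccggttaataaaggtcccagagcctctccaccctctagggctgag
Akr7a2: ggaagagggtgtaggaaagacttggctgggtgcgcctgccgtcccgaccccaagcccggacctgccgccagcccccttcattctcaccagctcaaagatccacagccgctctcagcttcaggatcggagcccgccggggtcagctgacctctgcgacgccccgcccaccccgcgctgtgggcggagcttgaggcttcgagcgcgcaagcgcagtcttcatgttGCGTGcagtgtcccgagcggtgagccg

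GCGTG stood at bases -57 to -53 before the start of Akr7a3 and at -27 to -23 before that of Akr7a2, and Akr7a2 held another copy at 16 to 20 after its start. Of 33469 RefSeq promoters searched on both strands, from 250 bases before to 50 after the start, 29.7% held this motif, so a match is common. The core of the antioxidant response element, TGACNNNGC, was in 12.1% of all promoters. It was in none of the windows of Akr7a3, Akr7a2, Akr1a1, Akr1b8 and Akr1c14, the 5 members matched to the promoter table. Direct repeats of AGTTCA, 4 or 3 bases apart, and of AGGTCA, 4 bases apart, are forms bound by the receptors CAR and PXR. They were in none of these 5 windows and in at most 0.012% of all promoters. At so low a share, a miss in 5 windows tells nothing about these genes. Bases outside the windows were not searched for any of the motifs, so sites there remain unknown. The GC content of the 250 upstream bases was 55.6% for Akr7a3 and 67.6% for Akr7a2.

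Akr7a3 was higher at the top dose and rose with dose. At 541 mg/kg its lowest, median and highest values were 11.03, 11.60 and 11.85, against 10.37, 10.79 and 11.07 in vehicle. All 6 samples at 541 mg/kg lay above the vehicle mean and 5 lay above the highest vehicle sample. The exception was replicate 2, so the groups overlapped by 1 sample. The group means were 11.56 ± 0.31 at 541 mg/kg and 10.75 ± 0.26 in vehicle (SD, n = 6 each). The difference was 0.81 ± 0.17 (limma's standard error; 95% interval 0.46 to 1.15), a level 1.75-fold higher, with limma adjusted p = 0.028 over all probe sets. It was the single one of the 9 member probe sets past a false discovery rate (FDR) of 5% at this dose (1 of 9), where 0.155% of all probe sets passed and 0.116% were higher. By p it ranked 34 of the 31042 probe sets. In whole liver, more cells of a type and more RNA per cell cannot be told apart.

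The call at 541 mg/kg lay near its threshold. Leaving out each of the 12 samples in turn gave differences of 0.73 to 0.92, and the adjusted p ran between 0.00619 and 0.0983. It passed in 5 of these 12 fits. It did not pass without vehicle replicates 1, 2 or 4 or without 541 mg/kg replicates 1, 3, 4 or 6.

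Below the top dose Akr7a3 had intermediate means. Its lowest, median and highest values were 10.32, 11.03 and 11.38 at 0.05 mg/kg, 10.64, 10.93 and 11.16 at 0.54 mg/kg, 10.70, 10.99 and 11.80 at 5.41 mg/kg, and 10.93, 11.14 and 11.41 at 54.1 mg/kg. All 4 of these groups overlapped vehicle. The differences from vehicle were 0.14, 0.17, 0.32 and 0.40 in the same order of doses, each with a standard error of 0.17. None passed the FDR (limma adjusted p = 1, 0.999, 0.977 and 0.452). At 54.1 mg/kg, where 0.0741% of all probe sets passed, all 6 samples lay above the vehicle mean and 4 above the highest vehicle sample. At 5.41 mg/kg replicate 4 reached 11.80 while the other 5 samples lay between 10.70 and 11.04, and without it the difference was 0.17.

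The order of the Akr7a3 group means followed the order of the doses, from vehicle at the bottom to 541 mg/kg at the top. This order held in 33 of the 36 fits with 1 sample left out, and not without 0.05 mg/kg replicates 2 or 4 or 0.54 mg/kg replicate 2. Without 0.05 mg/kg replicate 2 the difference at 0.05 mg/kg was 0.25, above the 0.17 at 0.54 mg/kg. The medians did not follow the order between 0.05 and 5.41 mg/kg. Only the step between 541 and 54.1 mg/kg, 0.41, exceeded the pooled SD of 0.31, and it did not pass its own test (limma adjusted p = 0.999, with 0.00322% of all probe sets past the FDR). Of the other 4 steps between neighbours, each was between 0.03 and 0.15. Without 5.41 mg/kg replicate 4 the step between 5.41 and 0.54 mg/kg was 0.0046 and that between 54.1 and 5.41 mg/kg was 0.23. A linear trend over the dose order, scored 0 to 5, rose by 0.14 ± 0.03 per step (limma adjusted p = 0.0107). Over all probe sets, 0.715% passed that trend and 0.341% rose with it. The trend passed in each of the 36 fits with 1 sample left out, with slopes of 0.13 to 0.16 and adjusted p between 0.00338 and 0.0283. An F-test over all 6 groups gave limma adjusted p = 0.214 for Akr7a3, and 0.0999% of all probe sets passed it.

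**Figure D1:**
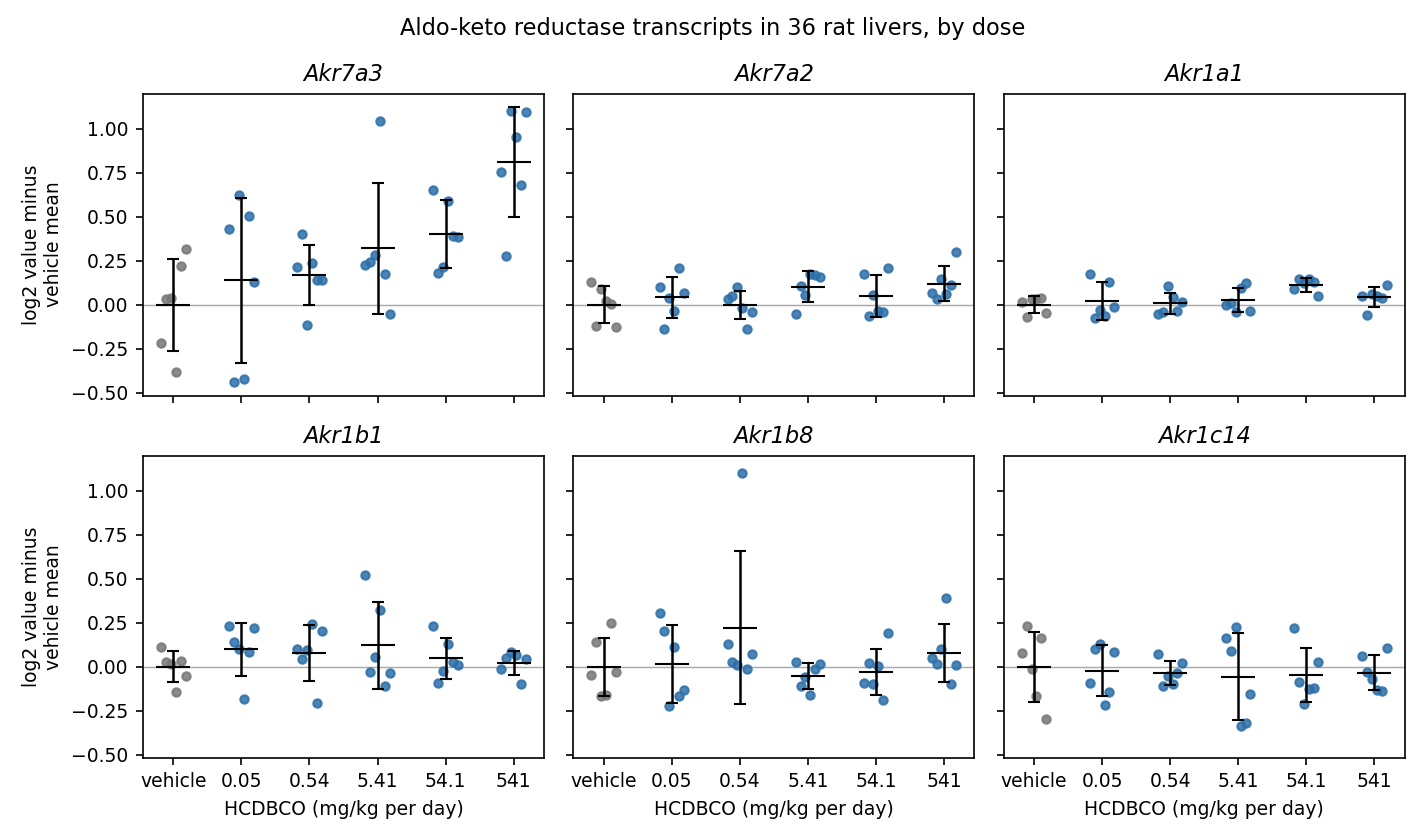
Log2 values of the leading probe set of each member minus its vehicle mean (vertical axis), by daily dose of HCDBCO in mg/kg (horizontal axis, vehicle at the left). Points are single samples and black marks are the group mean ± SD (n = 6). Akr7a3 climbs to a mean of 0.81 above vehicle at 541 mg/kg, while the group means of the other 5 genes lie within 0.22 of vehicle and Akr1b8 has 1 high sample at 0.54 mg/kg.

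Akr7a2 encodes the other AKR7 enzyme, which reduces succinic semialdehyde and other aldehydes. Its lowest, median and highest values were 10.85, 10.90 and 11.11 at 541 mg/kg, against 10.69, 10.83 and 10.94 in vehicle. All 6 samples at 541 mg/kg lay above the vehicle mean, but 4 of them lay within the vehicle range. The means were 10.93 ± 0.10 at 541 mg/kg and 10.81 ± 0.10 in vehicle (SD, n = 6 each), a difference of 0.12 ± 0.06 that did not pass (95% interval -0.01 to 0.25; limma adjusted p = 0.576). From 0.05 to 54.1 mg/kg the differences were 0.04, -0.0014, 0.10 and 0.05, and no 2 neighbouring group means differed by more than the pooled SD of 0.10. The trend was 0.02 per step (limma adjusted p = 0.434).

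The change of Akr7a3 at 541 mg/kg was larger than that measured for each other member. For Akr1b8 this carries a limit: its mean of 3.59 lay below the lower quartile of every array (3.62 to 3.79), and whether its probe set lay above background was not tested. Within each sample the Akr7a3 value was set against the other gene's leading value, and the difference of changes was tested by an exact permutation over the 924 ways to allot 12 samples to the dose and vehicle. This test was added after the data had been seen, and the rise of Akr7a3 was already known. The changes differed by 0.69 ± 0.17 from Akr7a2, 0.77 ± 0.16 from Akr1a1, 0.79 ± 0.16 from Akr1b1, 0.73 ± 0.15 from Akr1b8 and 0.84 ± 0.19 from Akr1c14. Each gave a two-sided exact p = 0.00433, which stayed 0.00433 after adjustment over the 5 comparisons. All 5 comparisons use the same 12 Akr7a3 values, so they are not independent results, and the same holds at 54.1 mg/kg. At 54.1 mg/kg the Akr7a3 difference from vehicle itself did not pass the FDR over all probe sets (limma adjusted p = 0.452). The p-values here are adjusted over 5 comparisons only and do not make it a call. The changes differed there by 0.35 from Akr1b1, 0.43 from Akr1b8 and 0.45 from Akr1c14 (exact permutation, adjusted p = 0.0325 for each). There the difference from Akr7a2 was 0.35 (exact permutation p = 0.0476, adjusted p = 0.0595) and that from Akr1a1 was 0.29 (exact permutation p = 0.0758, adjusted p = 0.0758).

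**Figure D2:**
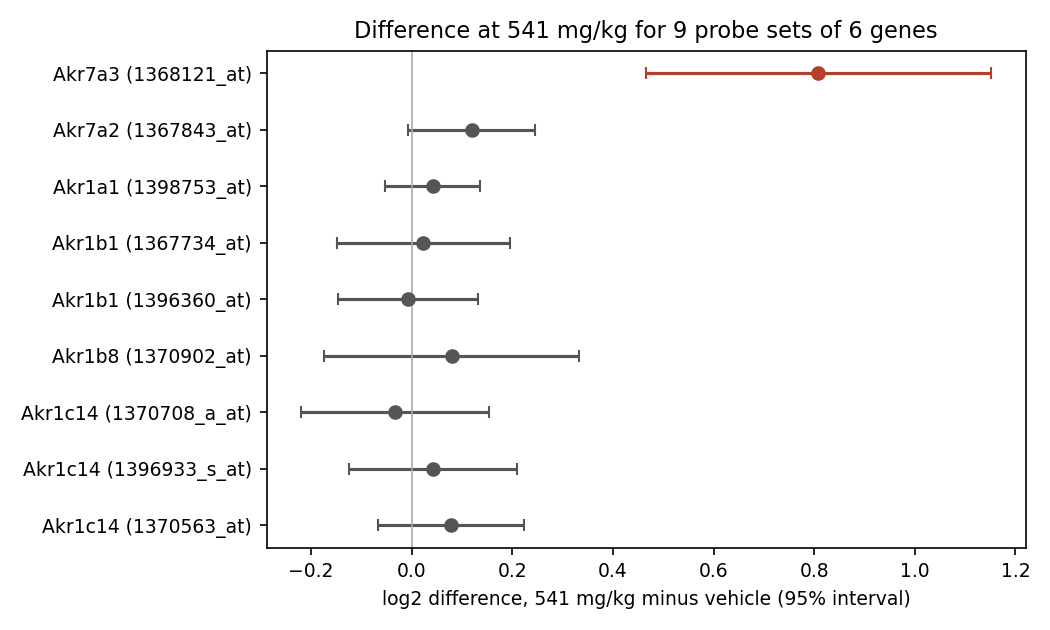
Log2 difference between 541 mg/kg and vehicle (horizontal axis) for each of the 9 probe sets (vertical axis), with limma's 95% interval over n = 6 per group. Akr7a3, in red, lies at 0.81 with an interval of 0.46 to 1.15, and the intervals of the other 8 probe sets, in grey, include 0.

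Akr1a1 encodes aldehyde reductase, which reduces glucuronate to gulonate on the way to ascorbate in rodents. Its lowest, median and highest values were 11.79, 11.90 and 11.97 at 541 mg/kg, against 11.78, 11.88 and 11.89 in vehicle. The groups overlapped, and the difference was 0.04 ± 0.05 (limma adjusted p = 0.843). At 54.1 mg/kg the values were 11.90, 11.98 and 12.00, and all 6 samples lay above every vehicle sample, as for 0.226% of all probe sets. The difference there was 0.11 ± 0.05 (95% interval 0.02 to 0.21) and did not pass (limma adjusted p = 0.437). At 0.05, 0.54 and 5.41 mg/kg the differences were 0.02, 0.01 and 0.03. The means at 541 and 54.1 mg/kg stood 0.071 apart, just over the pooled SD of 0.067, and the other neighbours stood closer than it. The trend was 0.01 per step (limma adjusted p = 0.481). Akr1a1 was the steadiest member: its residual SD lay at the 1.10th percentile of all probe sets, while that of Akr7a3, 0.31, lay at the 97.1st.

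Akr1b1 encodes aldose reductase, which turns glucose into sorbitol. Its leading probe set (1367734_at) had lowest, median and highest values of 7.11, 7.26 and 7.30 at 541 mg/kg, against 7.07, 7.24 and 7.33 in vehicle. The samples at 541 mg/kg all fell within the vehicle range, and the difference was 0.02 ± 0.08 (95% interval -0.15 to 0.20; limma adjusted p = 0.965). From 0.05 to 54.1 mg/kg its differences were 0.10, 0.08, 0.12 and 0.05, none past the FDR, and no neighbouring means differed by more than the pooled SD of 0.15. The other probe set (1396360_at) had values of 4.99, 5.02 and 5.34 at 541 mg/kg, against 5.01, 5.07 and 5.14 in vehicle. Its difference was -0.01 ± 0.07 at 541 mg/kg and 0.17 ± 0.07 at 54.1 mg/kg (limma adjusted p = 0.986 and 0.437). At 54.1 mg/kg 5 of its 6 samples lay above the highest vehicle sample. The 2 probe sets of Akr1b1 did not vary together between samples of the same dose, with r = 0.07 over 36 samples.

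Akr1b8, the gene next to Akr1b1 on chromosome 4, encodes an aldose reductase-like enzyme known in mice as a protein induced by fibroblast growth factor. Its lowest, median and highest values were 3.46, 3.59 and 3.95 at 541 mg/kg, against 3.39, 3.52 and 3.80 in vehicle. The groups overlapped, with a difference of 0.08 ± 0.12 (95% interval -0.17 to 0.33; limma adjusted p = 0.902). At 0.05, 5.41 and 54.1 mg/kg the differences were 0.02, -0.05 and -0.03. No neighbouring means differed by more than the pooled SD of 0.23. Both errors rested on 0.54 mg/kg replicate 4: without that sample the pooled SD was 0.15 and the difference at 541 mg/kg was 0.08 ± 0.08 (95% interval -0.09 to 0.25; limma adjusted p = 0.832). No neighbouring means differed by more than that smaller SD either. Its mean over all samples, 3.59, was the only one of the 9 member probe sets below 5.

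A single liver set the highest group mean of Akr1b8. At 0.54 mg/kg its values were 3.54, 3.60 and 4.65, and the last, from replicate 4, was above all the other 35 samples (3.33 to 3.95). The difference at that dose was 0.22 ± 0.12 (limma adjusted p = 0.999), and 0.05 without replicate 4. In that sample the chemokine genes Ccl7 and Ccl3 reached 6.19 and 7.00, against 3.58 to 4.27 and 5.18 to 6.03 in the other 35. Spp1, which encodes osteopontin, was at 7.73, against 5.05 to 5.99. The bile duct keratins Krt19 and Krt7 were at 8.37 and 5.36, against 4.69 to 6.27 and 3.40 to 4.24. The mean of 5 stellate cell markers was 6.97, against 5.95 to 6.79. The means of the hepatocyte, Kupffer cell, sinusoidal endothelium and blood markers lay within the range of the other samples. The other lead probe sets of the members were within the range of the other 35 samples there. What these values had to do with the Akr1b8 value was not tested.

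**Figure D3:**
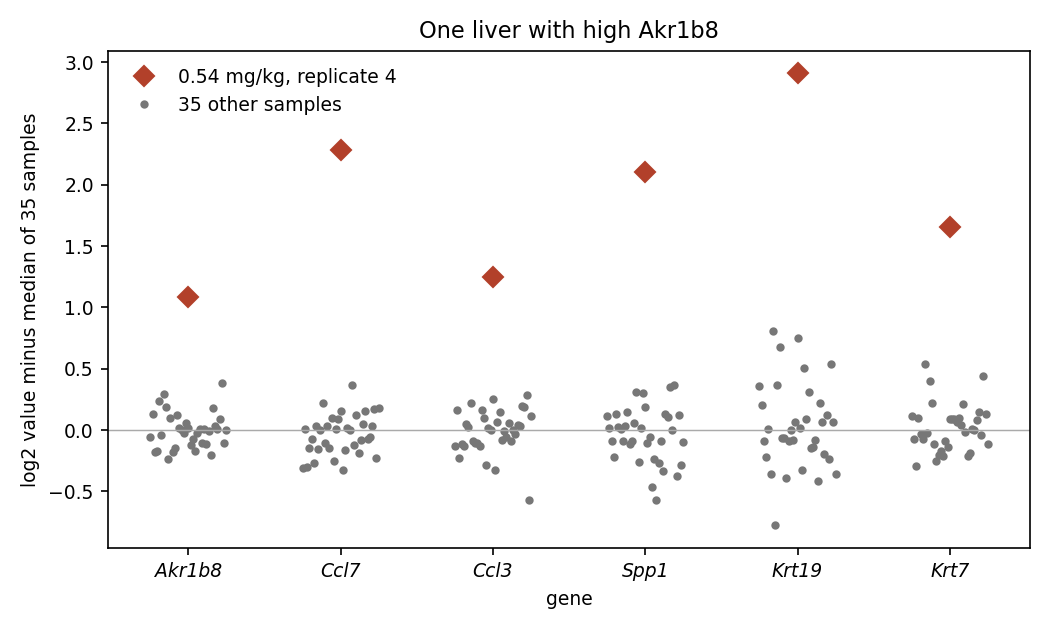
Log2 value minus the median of 35 samples (vertical axis) for Akr1b8, Ccl7, Ccl3, Spp1, Krt19 and Krt7 (horizontal axis). The red diamond is 0.54 mg/kg replicate 4 and the grey points are the other 35 samples, spread sideways for legibility, and the diamond lies above all of them for each of the 6 genes.

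Akr1c14 encodes the rat liver 3-alpha-hydroxysteroid dehydrogenase, which reduces ketosteroids and takes part in bile acid synthesis. Its leading probe set (1370708_a_at) had lowest, median and highest values of 11.78, 11.86 and 12.02 at 541 mg/kg, against 11.62, 11.94 and 12.14 in vehicle. All samples at 541 mg/kg lay within the vehicle range, and the difference was -0.03 ± 0.09 (95% interval -0.22 to 0.15; limma adjusted p = 0.952). The other probe sets gave 0.04 ± 0.08 (1396933_s_at) and 0.08 ± 0.07 (1370563_at), neither past the FDR (limma adjusted p = 0.925 and 0.795). Over the 5 doses the differences of the 3 probe sets lay between -0.06 and 0.08, and no neighbouring group means of any of them differed by more than the pooled SD. Unlike those of Akr1b1, they varied together between samples of the same dose, with r of 0.81 to 0.95 over 36 samples. Whether they also bind transcripts of other AKR1C genes was not checked.

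Over the 9 member probe sets the median difference at 541 mg/kg was 0.04, against 0.01 over all probe sets, and 7 of the 9 were positive, against 53.3% of all. The 9 are not separate genes, since 3 of them measure Akr1c14. By the leading probe sets of the 6 genes the median was 0.06 and 5 of the 6 were positive. At an unadjusted p under 0.05, 1 of the 9 passed at 541 mg/kg and 3 at 54.1 mg/kg (Akr7a3, Akr1a1 and 1396360_at of Akr1b1), where 9.07% and 9.2% of all probe sets passed. At 0.05, 0.54 and 5.41 mg/kg limma called 0 member probe sets and 0 of all probe sets past the FDR (0% called). At those doses 0 members and 3.02%, 4.18% and 4.83% of all probe sets had an unadjusted p under 0.05. Across the 15 pairs of members, deviations from the group means gave no correlation past an adjusted p of 0.05 (permutation, 36 samples) on the values as deposited. The highest was between Akr7a2 and Akr1a1, with r = 0.47 and rho = 0.46 (permutation p = 0.00833 and 0.0102, adjusted p = 0.125 and 0.108). Without the 2 samples farthest from the median of Akr7a2 it was 0.36. With each array centred on its median it was 0.59 and passed (permutation adjusted p = 0.00795).

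The 6 genes whose pattern over the 36 samples was most like that of Akr7a3, by Pearson r among 14216 genes, were Cryl1 (0.79), Ephx1 (0.78), Htatip2 (0.77), Pir (0.77), Gstt1 (0.77) and Aqp8 (0.75). These are descriptions over samples that share the doses; between samples of the same dose their r with Akr7a3 lay between 0.54 and 0.66. Cryl1 encodes a gulonate dehydrogenase, Ephx1 the microsomal epoxide hydrolase, Gstt1 a glutathione transferase, Pir the iron-binding nuclear protein pirin and Aqp8 a water channel. At 541 mg/kg Pir was 0.69 ± 0.11, Cryl1 0.58 ± 0.11, Ephx1 0.52 ± 0.10 and Htatip2 0.43 ± 0.08 above vehicle, all past the FDR (limma adjusted p = 0.00102, 0.0152, 0.0152 and 0.0152). Gstt1 was 0.33 ± 0.08 and Aqp8 0.19 ± 0.06 above vehicle, short of it (limma adjusted p = 0.0536 and 0.25).

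The places of single livers in these genes are given as a description, since the 6 genes were chosen for their correlation with Akr7a3 over the same samples. Replicate 2 of 541 mg/kg, the lowest of its group for Akr7a3, was the lowest of its group for Cryl1, Ephx1, Htatip2, Pir and Gstt1 too, but not for Aqp8. Replicate 4 of 5.41 mg/kg, with the high Akr7a3 value, was the highest of its group for Cryl1, Htatip2, Pir and Aqp8 but not for Ephx1 or Gstt1. Its Akr7a3 value of 11.80 lay within the range of 541 mg/kg, as did its values of Ephx1, Htatip2, Pir and Aqp8. Its Cryl1 value of 8.32 lay below the range of 541 mg/kg for that gene, 8.35 to 8.75. Its Gstt1 value of 9.51 also lay below the range of 541 mg/kg, 9.60 to 9.76. Gsta3, Cyp3a23-3a1, Cyp1a2 and Abcc2 were not chosen by correlation but from the aflatoxin list below, drawn up with earlier results of these data known. Replicate 4 of 5.41 mg/kg was the highest of its group for none of these 4 genes. Its Gsta3 value was 7.84, against 7.08 to 8.87 in the other 5 samples. Replicate 2 of 541 mg/kg was the lowest of its group for Gsta3 and Cyp3a23-3a1 but not for Cyp1a2 or Abcc2.

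**Figure D4:**
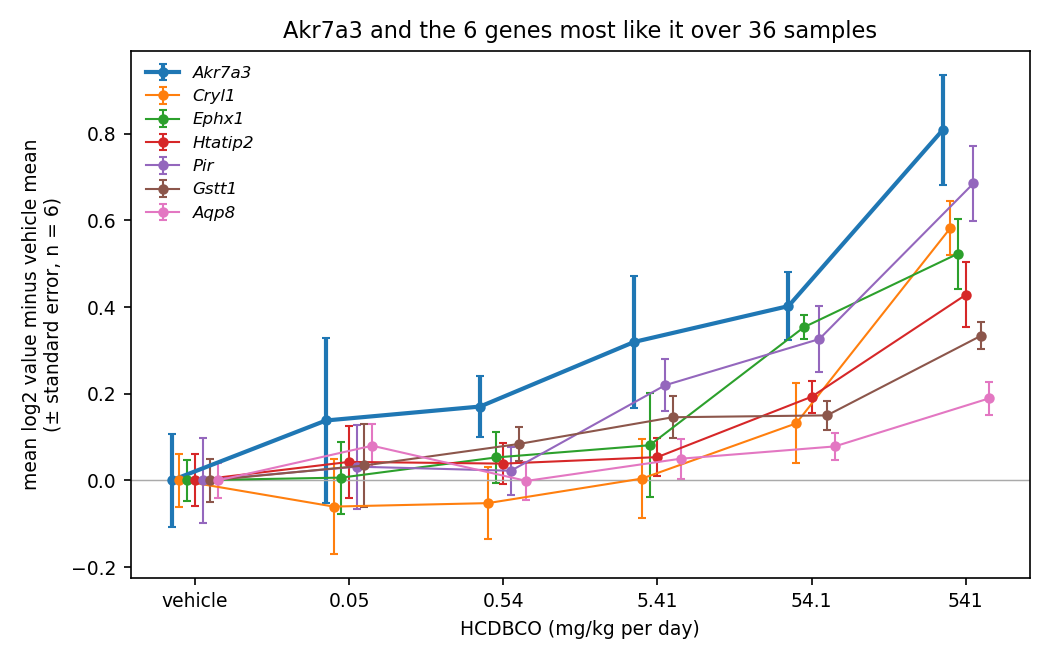
Mean log2 value minus the vehicle mean (vertical axis; bars are the standard error of the group mean, n = 6) by daily dose of HCDBCO in mg/kg (horizontal axis, vehicle at the left), for Akr7a3 and the 6 genes whose values correlate most with it. All 7 are highest at 541 mg/kg, where Akr7a3 stands at 0.81 and Aqp8 at 0.19.

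The genes most like each of the other members were also ranked by r over 36 samples. For Akr7a2 they were Mrpl21 (0.72), Ndufa5 (0.69) and Pold4 (0.68), the first 2 encoding mitochondrial proteins. For Akr1a1 they were Iftap (0.75), Asb8 (0.72) and Mrpl17 (0.72). For Akr1b1 they were Slfn2 (0.79), Cyba (0.77) and Ptpn18 (0.77). For Akr1c14 they were Atp6ap1 (0.78), Sdr42e1 (0.74) and Slc35c2 (0.73). For Akr1b8 they were Ccl7 (0.81), Ccl3 (0.79) and Spp1 (0.78), and without 0.54 mg/kg replicate 4 these fell to 0.35, 0.47 and 0.35. None of these 15 genes passed the FDR at 541 mg/kg (limma adjusted p from 0.71 to 0.993).

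Among the remaining aldo-keto reductases and their beta-subunit relatives, 12 of 17 listed genes were measured and 0 passed the FDR in any dose comparison or the trend (limma). At 541 mg/kg their median difference was 0.0014, against 0.01 over the leading probe sets of all named genes. The smallest p-values there were those of Akr1c15 and Akr1c19, at -0.31 ± 0.10 and -0.29 ± 0.10 (limma adjusted p = 0.223 and 0.272). All 6 Akr1c19 values at 541 mg/kg lay below every vehicle value, as for 0.351% of all probe sets.

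The list of genes for aflatoxin handling had the most genes past the FDR of the 9 pathway lists. It was drawn up with earlier results of these data known, so this place among the lists is a description. Of 5 measured, 3 rose at 541 mg/kg and 0 fell, where 0.116% of all probe sets rose. Gsta3, a glutathione transferase, was 1.34 ± 0.28 higher, at 8.96 in 541 mg/kg against 7.62 in vehicle (limma adjusted p = 0.0263). Gsta5, another transferase of the list, was not among those measured. Cyp3a23-3a1, a cytochrome P450, was 0.67 ± 0.11 higher (limma adjusted p = 0.00102), and Ephx1 was the third. All 3 also rose in the trend, as did 0.341% of all probe sets (limma adjusted p = 0.00179 for Gsta3, 4.05e-05 for Cyp3a23-3a1 and 0.00125 for Ephx1). The median of the 5 was 0.52 at 541 mg/kg, against 0.01 over all named genes. Ephx1 was also among the genes chosen above for their correlation with Akr7a3.

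Genes beside Akr1a1 and Akr1b1 in their pathways mostly did not pass. Of 8 genes of the glucuronate and ascorbate pathway, 1 rose at 541 mg/kg, Cryl1, and 0 fell, where 0.155% of all probe sets passed. The list's median was -0.06. Of 3 measured genes of the polyol and fructose pathway, 0 passed. Sord, which turns sorbitol into fructose, was 0.18 ± 0.06 above vehicle and Khk, ketohexokinase, was at -0.12 ± 0.05 (limma adjusted p = 0.281 and 0.389).

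Other enzymes that act on carbonyls and steroids gave 1 call. Of 17 measured aldehyde dehydrogenases, 1 rose at 541 mg/kg, as did 0.116% of all probe sets: Aldh1a1, a retinaldehyde dehydrogenase, by 0.68 ± 0.14 (limma adjusted p = 0.0189; trend adjusted p = 0.00181). Of 14 carbonyl and quinone reductases 0 passed, and Nqo1, a quinone reductase, was 0.69 ± 0.24 above vehicle with all 6 samples above every vehicle sample, as for 0.393% of all probe sets (limma adjusted p = 0.315). Dhrs11, another of that list, was at 0.14 ± 0.07 (limma adjusted p = 0.602). Of 4 measured alcohol dehydrogenases 0 passed, and Adh7 and Adh4 stood at 0.26 ± 0.17 and 0.31 ± 0.23 (limma adjusted p = 0.691 and 0.723). Of 9 measured genes of steroid reduction 0 passed, and Srd5a3 and Akr1d1 stood at 0.24 ± 0.07 and 0.18 ± 0.06 (limma adjusted p = 0.192 and 0.332).

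Of 10 regulators tied to the searched motifs, among them the NRF2 gene Nfe2l2 and the genes of CAR, PXR and the aryl hydrocarbon receptor, 0 passed at 541 mg/kg and 1 rose in the trend, where 0.155% and 0.341% of all probe sets did so. This was Ahr, whose leading probe set rose by 0.09 ± 0.02 per step (limma adjusted p = 0.0473) and stood 0.46 ± 0.14 above vehicle at 541 mg/kg (limma adjusted p = 0.196). Its other probe set gave -0.01 per step (limma adjusted p = 0.945).

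Markers of the liver's cell types gave 0 genes past the FDR at 541 mg/kg among 29 measured. The mean of the 6 hepatocyte markers was 14.03 at 541 mg/kg (13.99 to 14.08) and 14.08 in vehicle (14.05 to 14.13). The mean of the 5 sinusoidal endothelium markers was 8.12 at 541 mg/kg (8.01 to 8.24) and 8.31 in vehicle (8.12 to 8.54), with all 5 genes lower and none past the FDR. The Kupffer cell, stellate cell, bile duct and blood means at 541 mg/kg overlapped those of vehicle. The beta-actin controls, which show RNA degradation as a gap between 3′ and 5′ signal, had a gap of 1.18 ± 0.09 at 541 mg/kg and 1.13 ± 0.08 in vehicle (SD, n = 6 each). The part of these in the Akr7a3 difference was not tested.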

How the data were processed

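Liver RNA was hybridised to 1-colour Affymetrix 3′ expression arrays for rat, 1 per sample. The deposited log2 values were made by the authors with RMA and the affy package, per the submitters' processing notes, which give no versions; RMA corrects background, normalises between arrays and summarises probes. Raw intensities were not used here, so the log base rests on those notes. Of 31099 probe sets, 57 controls were left out. Genes were named only from probe sets with 1 symbol in the array annotation, and a gene with several was led by the one with the highest mean.

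Groups were taken from the sample titles. Group means of all 36 samples were estimated in 1 model (limma 3.58.1 under R 4.3.3, lmFit and eBayes). Two-sided tests covered every dose against vehicle, the top dose against the next, a linear trend across the ordered doses (scores 0 to 5) and an F-test. The p-values were adjusted by Benjamini-Hochberg across the 31042 probe sets, with a threshold FDR of 5%. The design text names another R package, not used here. No filter on dim values was applied. The fit was tested on simulated data. The labels give no animal numbers or batches, so p-values reflect only how these samples vary, and precision is set by how many arrays there were (median standard error of a group difference 0.0799, log2).

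Members and lists were chosen with earlier results of these data known. All member probe sets are named. From each of 9 pathway lists, every gene past the FDR in a dose comparison or the trend is named, otherwise the 2 with the smallest p at 541 mg/kg. The genes most like a member were the 3 (6 for Akr7a3) with the highest Pearson r over 36 samples. Genes set beside Akr1b8 in 1 sample were its 3 most like genes and the 2 keratins of the bile duct list, the keratins singled out after their values were seen. Pair correlations used deviations from group means, with 100000 permutations within groups. Alternatives were a replicate block, array weights, a filter on dim probe sets, median centring, only the groups compared, another variance moderation, the mean of a gene's probe sets and each sample left out. The values of Akr1b8 and of its most like genes without 0.54 mg/kg replicate 4, and the order and steps of the Akr7a3 means with samples left out, were added after seeing the data.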

Additional observations from a re-analysis of the deposited data

Results flagged for a closer look

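Each of the 9 member probe sets was examined in each of the 6 groups for a sample far from the other 5 (Dixon's test at the 95% level). Of 54 groups, 5 held such a sample, where chance gives about 1 in 20. The 54 are not independent, since all probe sets share the samples and some measure the same gene, so no excess is read from this count. Akr7a3 was at 11.80 in 5.41 mg/kg replicate 4, with the nearest other at 11.04. Akr1b8 was at 4.65 in 0.54 mg/kg replicate 4, with the nearest other at 3.68. Akr1b1 was low in 0.05 mg/kg replicate 4 for 1367734_at (7.03, nearest 7.30) and high in 541 mg/kg replicate 2 for 1396360_at (5.34, nearest 5.06). Akr1c14 (1370563_at) was at 11.26 in 0.54 mg/kg replicate 6, with the nearest other at 11.11.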

How the results depend on the processing

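The rise of Akr7a3 at 541 mg/kg kept its direction and stayed past the FDR under all 7 alternatives other than leaving out a sample (limma adjusted p from 0.0177 to 0.049), and its trend passed under each alternative run. With 1 sample left out, 0 to 1 member probe sets passed at 541 mg/kg. Same-numbered samples did not deviate together on average (mean r 0.014 against -0.0028 for different numbers). Of 36 samples, 5 correlated best with their own number. These values cannot show whether a weak pairing was present, and the labels do not say whether the numbers pair the samples. With the replicate number as a block, Akr7a3 stood at 0.81 (limma adjusted p = 0.0452) at 541 mg/kg, and no member's call changed. Counts over all probe sets moved more: at 541 mg/kg 48 became 80 with array weights, 79 with the filter on dim probe sets and 31 with only the groups compared. At 54.1 mg/kg 23 became 64 with weights and 43 with only the groups compared. For the trend 222 became 376 with weights and 369 with the filter, and for the F-test 31 became 53 with weights. Without 1 sample the counts ran 18 to 63 at 541 mg/kg, 5 to 36 at 54.1 mg/kg, 0 to 2 for 541 against 54.1 mg/kg, 85 to 272 for the trend and 17 to 41 for the F-test. Except for the alternatives that test fewer probe sets or samples, the cause was not tested.

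Of 404 member differences under the alternatives other than leaving out a sample, 10 had the opposite sign, all of them uncalled values near 0. With the mean of a gene's probe sets Akr1c14 was at 0.029 at 541 mg/kg and 0.0031 per step. With centring, 1370563_at of Akr1c14 was at -0.00045 at 54.1 mg/kg and -0.0046 at 0.05 mg/kg, Akr1a1 at -0.0094 at 0.54 mg/kg and Akr1b1 (1367734_at) at -0.0013 per step. With weights, Akr1b8 was at -0.025 at 0.05 mg/kg and 0.0030 per step, 1370563_at of Akr1c14 at -0.0063 at 0.05 mg/kg and 1367734_at of Akr1b1 at -0.00036 per step. Leaving out 1 sample turned other uncalled differences, whose ranges follow. For 0.05 mg/kg against vehicle they were -0.010 to 0.040 for Akr1a1, -0.042 to 0.067 for Akr1b8, -0.081 to 0.024 for Akr1c14 (1370708_a_at), -0.062 to 0.044 for Akr1c14 (1396933_s_at) and -0.037 to 0.046 for Akr1c14 (1370563_at). For 0.54 mg/kg against vehicle they were -0.026 to 0.025 for Akr7a2, -0.013 to 0.019 for Akr1a1, -0.093 to 0.013 for Akr1c14 (1370708_a_at) and -0.098 to 0.0044 for Akr1c14 (1396933_s_at). For 5.41 mg/kg against vehicle they were -0.083 to 0.00032 for Akr1b8 and -0.11 to 0.0014 for Akr1c14 (1370708_a_at). For 54.1 mg/kg against vehicle they were -0.071 to 0.023 for Akr1b8, -0.062 to 0.040 for Akr1c14 (1396933_s_at) and -0.025 to 0.034 for Akr1c14 (1370563_at). For 541 mg/kg against vehicle they were -0.0059 to 0.048 for Akr1b1 (1367734_at), -0.060 to 0.0092 for Akr1b1 (1396360_at), -0.092 to 0.013 for Akr1c14 (1370708_a_at) and -0.016 to 0.087 for Akr1c14 (1396933_s_at). For 541 mg/kg against 54.1 mg/kg they were -0.053 to 0.012 for Akr1b1 (1367734_at) and -0.018 to 0.068 for Akr1c14 (1370708_a_at). For the trend per dose step they were -0.0047 to 0.0036 for Akr1b1 (1367734_at), -0.0032 to 0.0067 for Akr1b1 (1396360_at), -0.0090 to 0.0071 for Akr1b8 and -0.0029 to 0.012 for Akr1c14 (1396933_s_at). Among member pairs, r turned to 0.076 for Akr7a3 and Akr1b8, 0.26 for Akr7a3 and Akr1c14 and -0.10 for Akr1a1 and Akr1b8 without the 2 farthest samples. With centring it turned to 0.013 for Akr7a3 and Akr1c14 and 0.038 for Akr7a2 and Akr1c14, and that of Akr7a2 and Akr1a1 became 0.59 and passed (permutation adjusted p = 0.00795).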
